A study of Mus musculus with 2 samples.

Results

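The genes described here encode enzymes of heme synthesis, and they were chosen by symbol as Alas1, Alas2, Alad, Uros, Urod, Cpox, Ppox and Fech, 8 of the 26124 genes counted in both libraries. Their raw counts of unique molecular identifiers (UMIs, 1 per captured RNA molecule) were summed per cell type and library, with no upper limit on the number of genes per cell. The counts come from droplet-based single-cell RNA sequencing with the 10x Genomics 3′ v3.1 chemistry, applied to spleen cells of 1 wild-type and 1 sickle cell disease (SCD) mouse. Erythrocytes had been lysed and dendritic cells (DCs) enriched by removing other cells with a bead kit, so the erythroid cells measured here are those that escaped lysis and depletion.

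Both mice were untreated and 12 to 16 weeks old, and both were homozygous for Hbatm1Paz, the targeted mouse alpha-globin locus. The SCD mouse was also homozygous for Hbbtm1Tow, the targeted mouse beta-globin locus, and homozygous for the human globin transgene Tg(HBA-HBBs)41Paz (Tg/Tg, sickling). The mouse called wild-type was a littermate that was heterozygous for Hbbtm1Tow and hemizygous for the same transgene (Tg/0, non-sickling), so it was no animal free of engineered alleles. Each genotype was 1 mouse, and genotype and library cannot be told apart.

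Heme is made in 8 enzymatic steps, beginning and ending in the mitochondrion with the middle steps in the cytosol. Aminolevulinate synthase makes the first committed intermediate and exists as a ubiquitous form, Alas1, and an erythroid form, Alas2, encoded on the X chromosome. Alad joins pairs of aminolevulinate into porphobilinogen, Uros closes the ring, Urod and Cpox trim its side chains, Ppox oxidizes it and Fech inserts iron. Erythroid cells make most of the body's heme, for hemoglobin, and Alas2 is transcribed under the erythroid factor Gata1 and translated according to iron supply. In other cells Alas1 is repressed by heme itself.

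In the mouse genome (GRCm38, GENCODE annotation) the protein-coding genes whose values the results turn on were Alas2 at chrX:150547375-150570638 (plus strand), Alas1 at chr9:106233455-106248654 (minus strand), Cpox at chr16:58670292-58717636 (plus strand) and Urod at chr4:116989965-116994413 (minus strand). No member overlapped another gene on its own strand. Genes on the opposite strand overlapped Alas1 (4930500F10Rik), Alas2 (Apex2 and Mir3620), Uros (Bccip), Cpox (Gpr15) and Ppox (B4galt3), and whether strand was used in counting is not given in the sources used here.

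Upstream sequence from RefSeq (GRCm38.p6) was matched by symbol for 7 of the 8 genes, and the 250 bases before the RefSeq start are shown for 4 whose values are contrasted below. Capitals mark the GATA motif (A or T, then GATA, then A or G) and CACCC, both read on either strand. Alas2 is the erythroid form and its window is chrX:150547167-150547416 (plus strand), Cpox was high in both erythroid clusters and its window is chr16:58669958-58670207 (plus strand), Alas1 was highest outside the erythroid cells and its second window is chr9:106247731-106247980 (minus strand), and Urod is shown as a window without either motif, chr4:116994414-116994663 (minus strand).
Alas2: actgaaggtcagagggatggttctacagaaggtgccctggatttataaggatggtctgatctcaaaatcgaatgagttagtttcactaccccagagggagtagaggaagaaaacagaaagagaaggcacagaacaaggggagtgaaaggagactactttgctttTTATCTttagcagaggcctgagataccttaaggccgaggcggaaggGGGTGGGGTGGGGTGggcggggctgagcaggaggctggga
Cpox: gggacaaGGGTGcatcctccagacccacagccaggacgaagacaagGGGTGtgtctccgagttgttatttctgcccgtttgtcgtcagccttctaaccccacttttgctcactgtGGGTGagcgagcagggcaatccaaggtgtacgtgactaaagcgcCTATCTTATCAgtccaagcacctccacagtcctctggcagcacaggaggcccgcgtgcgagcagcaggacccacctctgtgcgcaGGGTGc
Alas1: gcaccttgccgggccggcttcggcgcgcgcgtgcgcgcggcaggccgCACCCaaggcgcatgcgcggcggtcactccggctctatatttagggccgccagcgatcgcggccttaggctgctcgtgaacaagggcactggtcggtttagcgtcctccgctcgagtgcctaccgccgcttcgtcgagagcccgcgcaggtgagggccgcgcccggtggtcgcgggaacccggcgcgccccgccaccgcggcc
Urod: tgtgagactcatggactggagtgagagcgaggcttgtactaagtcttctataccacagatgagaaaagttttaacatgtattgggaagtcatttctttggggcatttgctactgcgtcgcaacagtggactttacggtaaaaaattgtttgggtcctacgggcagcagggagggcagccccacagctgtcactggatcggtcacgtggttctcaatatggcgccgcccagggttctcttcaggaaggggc
A GATA match stood 86 to 81 bases before the start of Alas2, with 3 CACCC matches, end to end, between 40 and 26 bases. Cpox held 2 GATA matches that share a base, between 91 and 81 bases, and 4 CACCC matches. The Alas1 window held 1 CACCC and no GATA match. Of 32851 such windows in the mouse table, 26.5% held a GATA match and 52.0% a CACCC match. RefSeq and GENCODE starts differ, so the Alas1 window lies within the GENCODE gene and the Alas2 window runs past its GENCODE start. These are matches of letters and not measured sites.

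The libraries held 10845 (wild-type) and 13447 (SCD) barcodes with 97880318 and 189688217 UMIs, of which 9720 and 11858 cells passed the filters. The SCD cells were deeper, with a median of 9065.5 UMIs against 5159.5, and 88 barcodes occurred in both libraries. Clusters were named here from marker genes, not by the study. Levels are given as CPM (the counts-per-million scale), the UMIs of a gene relative to the total UMIs of the same cells, with exact 95% intervals that cover counting error only. With 1 mouse per genotype, no test across animals was possible.

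Erythroid-like cells numbered 247 (2.54%) in the wild-type and 679 (5.73%) in the SCD library, and held 18.8% and 27.5% of all UMIs. The mitochondrial and ribosomal filters left out 348 and 276 further erythroid-like cells. Without these 2 filters, but still with at least 500 genes per cell, there were 607 and 990 erythroid-like cells. The matrices held 10845 and 13447 barcodes, of which 496 and 609 were under 500 genes and were not clustered. The difference in the erythroid-like share was thus smaller than in the kept cells. All 19 erythroid markers, among them Gata1, Klf1 and Epor, were detected in the kept erythroid-like cells in both libraries. They formed 2 clusters. The larger, called the Car1 cluster from its leading gene (192 wild-type and 627 SCD cells), was led by Car1, Car2, Mt2, Mt1, Klf1 and Ermap and had a median of 80176.5 and 78534 UMIs per cell. The smaller, called the globin cluster (55 and 52 cells), was led by Hbb-bs, Hbb-bt, Hba-a1, Tmcc2, Slc4a1 and Bpgm and had a median of 7747 and 2408.5 UMIs, with mouse globin making up 48.0% and 21.0% of them.

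Mouse globin counts bear on the labels. Hbb-bs, the adult beta-globin, stood at 8649 CPM in wild-type cells and 43.7 CPM in the SCD erythroid cells, and Hbb-bt at 2546 and 27.1 CPM. Hba-a1, an alpha-globin gene at the locus that both labels give as targeted, was counted at 4497 and 3974 CPM, so the label and the counts differ for this gene. No human gene is among the genes counted, and whether reads of the human transgenes were assigned to mouse globin genes was not tested.

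The first question was how each enzyme in erythroid cells compared with all other kept cells of the same library. Alas2, Alad, Uros, Urod, Cpox and Fech were at least 2-fold higher in erythroid cells in both libraries, Alas1 was at least 2-fold lower in both, and Ppox was within 2-fold. That is 6 of 8 higher in the wild-type library, where 22.9% of 14177 genes with at least 20 UMIs were at least 2-fold higher, and 6 of 8 in the SCD library, where 28.4% of 14428 genes were. The 1 member lower compares with 38.8% and 32.1% of all genes. The median log2 ratio over the 8 was 2.78 and 2.58, against -0.27 and 0.11 over all genes. The members and the pathway genes took no part in the clustering.

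Alas2 had the largest ratio of the 8 in the wild-type library, and the third, after Cpox and Alad, in the SCD library. It had 1249 UMIs in wild-type erythroid cells (83.5 CPM) and 117 in all other cells (1.81 CPM), a 46.1-fold difference (interval 38.1 to 56.2). In the SCD library it had 894 UMIs (18.9 CPM) against 227 (1.82 CPM), a 10.4-fold difference (8.96 to 12.1). With the globin cluster left out, an alternative chosen after seeing the data, the log2 ratio for Alas2 was 1.21 in the wild-type library, against 5.53 with it. With at most 5000 genes per cell the log2 ratio rose to 10.02 in the wild-type and 8.93 in the SCD library, against 5.53 and 3.38. Between the libraries the other cells differed by less than counting error, and the erythroid cells did not.

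Alad, which makes porphobilinogen, stood at 185 CPM in wild-type erythroid cells and 9.78 CPM in other cells, 18.9-fold higher, and at 175 against 10.7 CPM in SCD, 16.3-fold higher. Cpox, coproporphyrinogen oxidase, had the highest erythroid count of the 8, with 4053 and 14714 UMIs, and was 15.8-fold and 20.9-fold above other cells. Urod was 6.47-fold and 4.73-fold higher. Fech, the ferrochelatase that ends the pathway, was 7.27-fold and 7.60-fold higher. Uros, the least raised of these, was 3.37-fold and 4.42-fold higher. These genes differed between erythroid and other cells by more than counting error allows in both libraries. With at most 5000 genes per cell the log2 ratios in the wild-type and SCD libraries were 3.85 and 5.90 for Alad. They were 3.15 and 5.14 for Uros and 4.06 and 6.17 for Cpox, a wider gap between the libraries for these genes. Under the same limit Urod gave 4.29 and 4.58 and Fech gave 5.90 and 6.31.

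Ppox, the oxidase of the penultimate step, was close to even, at 18.0 against 14.0 CPM in wild-type cells and 15.3 against 11.3 CPM in SCD cells, log2 ratios of 0.36 (0.16 to 0.56) and 0.44 (0.31 to 0.57). With at most 5000 genes per cell these were 2.52 and 3.32, past 2-fold. Alas1 went the other way, with 12.96 against 44.8 CPM in wild-type cells and 15.9 against 70.1 CPM in SCD cells, log2 ratios of -1.79 and -2.14.

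**Figure D1:**
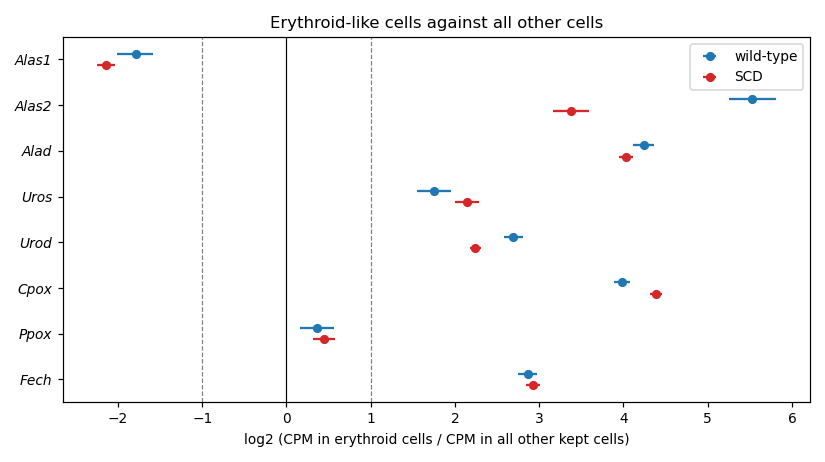
Log2 ratio of CPM in erythroid-like cells to CPM in all other kept cells for each enzyme (rows), wild-type library in blue and SCD library in red, with exact 95% counting intervals; dashed lines mark 2-fold. Alas1 lies at -1.79 and -2.14, Ppox between 0.36 and 0.44, and the other 6 enzymes to the right of the 2-fold line in both libraries.

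The share of each gene's UMIs that came from erythroid cells needs no comparison of levels between genes. It was 91.4% for Alas2 in the wild-type and 79.8% in the SCD library, 81.4% and 86.1% for Alad, and 78.5% and 88.8% for Cpox. Fech gave 62.7% and 74.3%, Urod 59.97% and 64.2%, and Uros 43.8% and 62.6%. Ppox had 22.9% and 34.0% and Alas1 6.28% and 7.93%, against 18.8% and 27.5% for the UMIs of all genes. Only Alas1 lay below the share of all genes in both libraries. These shares depended on the filters: the median over the 8, 61.35% and 69.2%, was 13.8% and 26.0% with at most 5000 genes per cell and 39.1% and 60.8% with all barcodes.

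The 2 erythroid clusters differed in which enzymes they held. Alas2 was mostly in the globin cluster, where it stood at 2733 CPM in wild-type cells and 2871 CPM in SCD cells, against 4.198 and 7.88 CPM in the Car1 cluster. Of all erythroid Alas2 UMIs, 1188 of 1249 (wild-type) and 522 of 894 (SCD) lay in these 55 and 52 cells. Alas2 was detected in 53 of 55 and 42 of 52 globin-cluster cells, with a median of 21 and 3.5 UMIs per cell. In the Car1 cluster it was detected in 13 of 192 and 91 of 627 cells, although those cells were far deeper.

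The spread of Alas2 over Car1-cluster cells differed between the libraries. In the wild-type library 53 of 61 UMIs lay in the 5 highest cells, and 2 cells had at least 5 UMIs. In the SCD library 101 of 372 lay in the 5 highest, and 25 cells had at least 5.

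Of the 8 members, 5 were at least 2-fold higher in the globin cluster than in the Car1 cluster in both libraries (Alas2, Uros, Urod, Ppox and Fech), where 14.7% (wild-type) and 18.2% (SCD) of all genes were. Fech stood at 1152 against 76.6 CPM in wild-type cells and 1804 against 81.1 CPM in SCD cells, about 15-fold and 22.2-fold higher. Every wild-type and 51 of 52 SCD cells of the globin cluster held a Fech UMI. Ppox was 89.7 against 15.8 CPM and 165 against 14.7 CPM, and Urod 398 against 104 CPM and 836 against 97.7 CPM. Uros was 50.6 against 22.1 CPM and 138 against 22.8 CPM, on 22 and 25 UMIs.

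Alad and Cpox did not share this order. Alad was 64.4 against 188 CPM in the wild-type library, lower in the globin cluster, and 253 against 175 CPM in SCD cells. Cpox was 159 against 274 CPM and 446 against 310 CPM. Alas1 had 3 UMIs in the wild-type and 0 in the SCD globin cluster, and a count of 0 allows up to 16.5 CPM there, so a level like the 16.0 CPM of the Car1 cluster could not be told from none.

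The share of mouse globin lowers the CPM of all other genes and differed between the libraries. With globin left out of the totals, log2 ratios of globin to Car1 cluster were 10.29 and 8.84 for Alas2, 4.85 and 4.81 for Fech, 3.44 and 3.82 for Ppox, 2.87 and 3.43 for Urod and 2.14 and 2.93 for Uros. Alad gave -0.61 and 0.87 and Cpox 0.15 and 0.86.

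**Figure D2:**
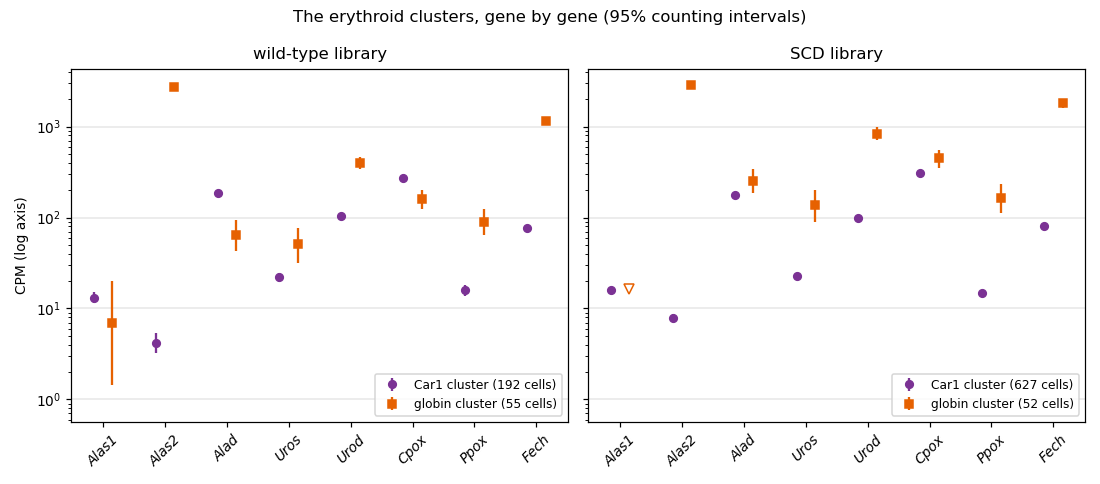
CPM (log axis) of each enzyme in the Car1 cluster (purple circles) and the globin cluster (orange squares), in the wild-type library on the left and the SCD library on the right, with exact 95% counting intervals; the open triangle is the limit of a count of 0. Alas2 goes from 4.198 to 2733 CPM and from 7.88 to 2871 CPM, while Alad and Cpox change order between the libraries.

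Erythroid cells were also ranked by the share of late-maturation UMIs (Slc4a1, Ermap, Tmcc2 and others) among early-list and late-list UMIs, and cut into tertiles over both libraries at 0.485 and 0.653. This is a range of a score and not a cell type, 71 and 63 of 918 scored cells lay within 0.02 of these limits, and 8 cells had no score. In the wild-type library 5 members, and in the SCD library 4, were at least 2-fold higher in the upper than in the lower tertile, where 6.83% and 3.86% of all genes were. With the score cut once, at its median, 3 members were in each library, where 3.91% (wild-type) and 2.25% (SCD) of all genes were. Alas2 went from 0.981 to 736 CPM in wild-type cells and from 0.921 to 76.8 CPM in SCD cells. Fech went from 65.1 to 391 CPM and from 51.6 to 152 CPM, Ppox from 12.9 to 50.04 and from 8.42 to 26.8, Uros from 16.8 to 48.2 and from 10.8 to 48.1, and Urod from 92.6 to 216 and from 76.1 to 142.

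Alad and Cpox went up by less than 2-fold, and Alas1 stood, in the lower and upper tertile, at 12.5 and 9.65 CPM (102 and 16 UMIs) in the wild-type and at 18.1 and 14.3 CPM in SCD cells. Within the wild-type upper tertile 52 of 73 cells belonged to the globin cluster, against 52 of 233 in SCD, and the share of the tertile's UMIs that were mouse globin was 13.1% and 1.04%. Within the upper tertile alone, SCD to wild-type log2 ratios were -3.26 for Alas2 and -1.36 for Fech.

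**Figure D3:**
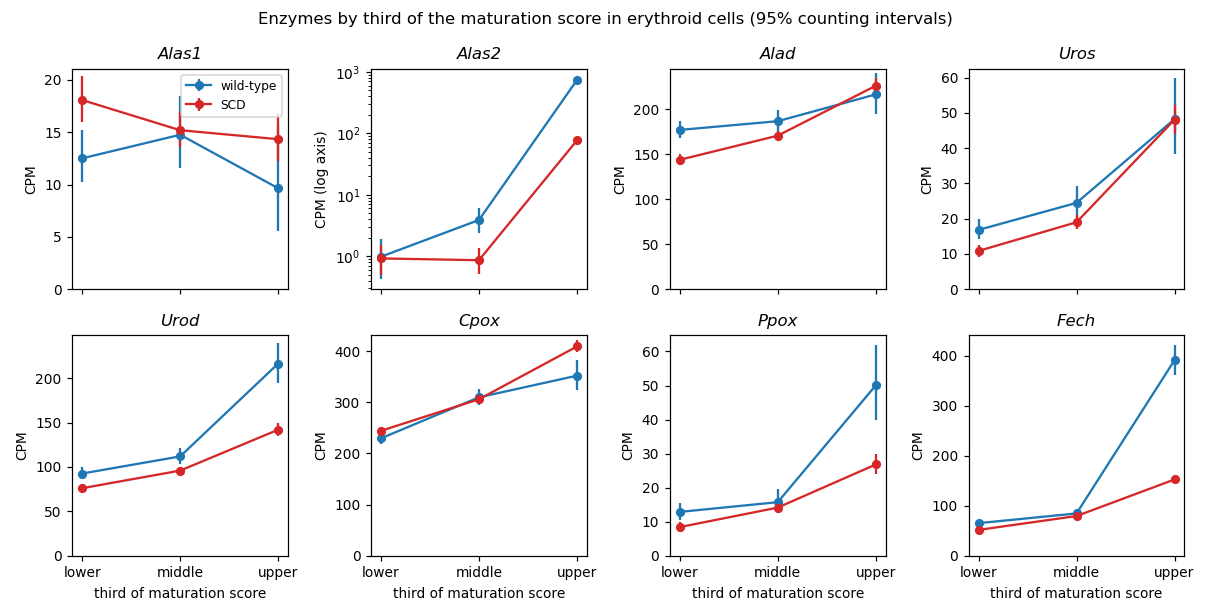
CPM of each enzyme in the lower, middle and upper tertile of the maturation score of erythroid cells (Alas2 on a log axis, the others from 0), wild-type library in blue and SCD library in red, with exact 95% counting intervals. All but Alas1 end higher than they begin in both libraries, and Alas2 reaches 736 CPM in wild-type cells and 76.8 CPM in the SCD upper tertile.

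The next question was how SCD erythroid cells compared with wild-type erythroid cells. Alas2 was 18.9 CPM in SCD and 83.5 CPM in the wild-type cells, a log2 ratio of -2.14 (-2.27 to -2.02), and it was the 1 member past 2-fold, where 5.97% of 12341 genes were at least 2-fold lower. None of the 8 was at least 2-fold higher, where 2.62% of genes were. The other members lay between -0.30 (Fech) and 0.30 (Alas1), and the median over the 8 was -0.12, against -0.06 over all genes. With at most 5000 genes per cell, which left 85 and 123 erythroid cells, these calls changed: Alad (1.89), Cpox (1.60) and Uros (1.37) were at least 2-fold higher in SCD, none was lower, and the median over the 8 was 0.49. How many of all genes passed 2-fold under that limit is not given here. All 55 and 52 globin-cluster cells were among those left, and in that cluster 34% of 2484 genes were at least 2-fold higher in SCD.

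By cluster the Alas2 values differed. Within the globin cluster the log2 ratio was 0.07 (-0.08 to 0.22), on 522 and 1188 UMIs, and within the Car1 cluster it was 0.91 (0.52 to 1.32), on 372 and 61 UMIs. The globin cluster was 55 of 247 wild-type and 52 of 679 SCD erythroid cells. Over all erythroid cells Alas2 was lower in SCD and within the Car1 cluster it was higher, while within the globin cluster the ratio depended on the globin share of the totals: with mouse globin left out of them it was -0.53 (-0.68 to -0.38).

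Within the Car1 cluster the remaining 7 members lay between -0.11 and 0.28. Cpox was 310 CPM in SCD and 274 CPM in the wild-type cells (0.18, interval 0.13 to 0.23) and Alas1 16.0 and 13.1 CPM (0.28, interval 0.05 to 0.52). Alad (-0.11) and Urod (-0.10) were lower by intervals that exclude 0, and Uros, Ppox and Fech had intervals that include 0.

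In the globin cluster Alad was 253 CPM in SCD and 64.4 CPM in the wild-type cells, on 46 and 28 UMIs. Uros was 138 and 50.6 CPM, Cpox 446 and 159, Urod 836 and 398, Ppox 165 and 89.7, and Fech 1804 and 1152. All 6 stood higher in SCD, but so did the median of all genes there, at 0.66 on the log2 scale. With mouse globin left out of the totals that median was 0.06, and the log2 ratios became 1.37 for Alad, 0.84 for Uros, 0.89 for Cpox, 0.47 for Urod, 0.28 for Ppox and 0.04 for Fech, beside the -0.53 of Alas2.

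**Figure D4:**
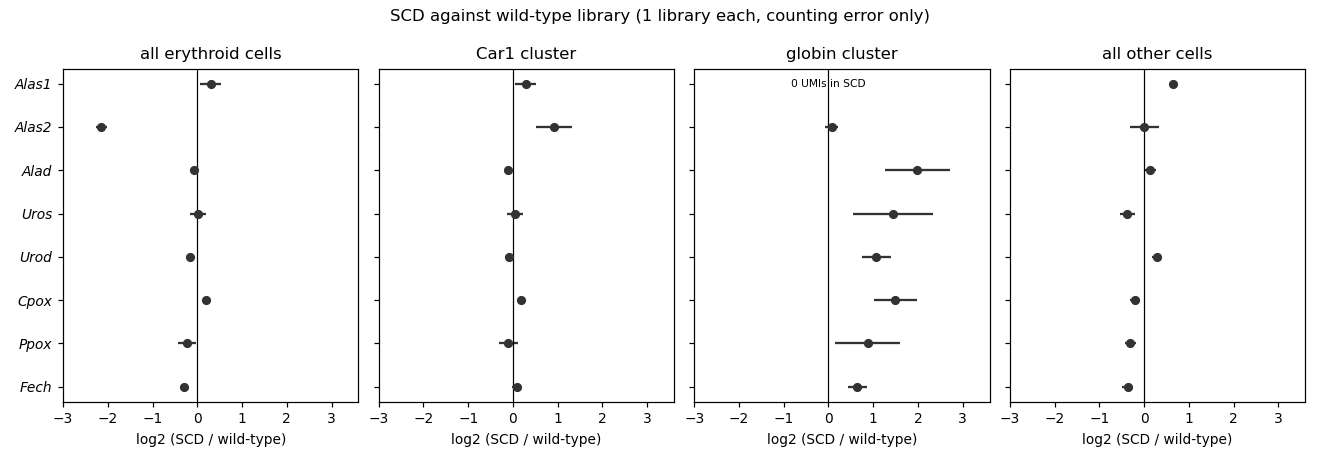
Log2 ratio of SCD to wild-type CPM for each enzyme (rows) in all erythroid cells, the Car1 cluster, the globin cluster and all other cells, 1 library per genotype, with exact 95% counting intervals. Alas2 lies at -2.14 in all erythroid cells but at 0.91 in the Car1 and 0.07 in the globin cluster.

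Over all kept cells, a sum that moves with the number of cells of each type as well as with their RNA, Alas2 was the 1 member at least 2-fold lower in SCD (6.51 against 17.2 CPM, log2 ratio -1.40), where 22.6% of 15315 genes were, and none was at least 2-fold higher, where 4.45% of genes were. Cpox (0.57), Alas1 (0.51), Alad (0.39) and Urod (0.28) stood higher in SCD, Ppox lower (-0.25), and Uros and Fech had intervals that include 0. Some of these directions turned with the processing: without the mitochondrial and ribosomal filters Alad was -0.071 and Urod -0.075, with at most 5000 genes per cell Cpox was -0.11, and under median-of-ratios scaling Ppox was 0.11. With a pseudocount of 5 CPM Alas2 was -0.95, no longer past 2-fold. The median over all genes was -0.31, and erythroid cells were 5.73% of the SCD and 2.54% of the wild-type cells.

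Outside the erythroid cells Alas1 had the most UMIs of the 8 in sum, and it was highest in neutrophil-like cells, at 85.5 CPM in wild-type cells and 91.7 CPM in SCD cells. Monocyte-like cells gave 34.3 and 28.6 CPM, conventional DC-like cells 30.5 and 23.4, plasmacytoid DC-like cells (pDC) 25.5 and 23.4, and red pulp macrophage-like cells 31.8 and 25.0 on 21 and 12 UMIs. The unnamed clusters gave 43.1 and 69.5 CPM, on 183 and 2438 UMIs. B cell-like cells gave 19.1 CPM in SCD cells, on 52 UMIs. Intervals of the red pulp macrophage-like cells included the monocyte-like, conventional DC-like and pDC-like levels, while the neutrophil-like cells stood above every other class. Neutrophil-like cells made up 44.98% (wild-type) and 60.7% (SCD) of the kept cells, and the Alas1 log2 ratio of SCD to wild-type was 0.65 over all non-erythroid cells but 0.10 (0.02 to 0.19) within neutrophil-like cells. That class too was mixed by cluster, with Alas1 at 92.6 (SCD) against 81.4 CPM in cluster 0, 55.4 against 61.2 CPM in cluster 1 and 276 CPM in the 173 SCD cells of cluster 20. No intervals are given for single clusters, so a direction of SCD to wild-type within clusters 0 and 1 is not claimed.

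The neutrophil-like and conventional DC-like classes were made up of different clusters in the 2 libraries: cluster 0 held 3679 of 4372 wild-type but 745 of 7195 SCD neutrophil-like cells, and cluster 3 held 1413 of 2814 and 219 of 813 conventional DC-like cells. Of the monocyte-like cells, cluster 16 held 393 of 918 and 46 of 946. Alas1 in cluster 4 was lower in SCD (29.1 against 35.99 CPM). In cluster 16 it was 10.9 against 30.4 CPM, but the SCD value came from 46 cells and few UMIs, so it gives no direction. Over all neutrophil-like cells Ppox was lower in SCD (12.5 against 16.4 CPM) and so was Fech (5.23 against 8.64 CPM), but values within clusters did not all go that way. In cluster 0 the SCD values were the higher, Ppox at 19.9 against 18.2 CPM and Fech at 24.4 against 12.2 CPM. Ppox was 11.96 against 15.8 CPM in cluster 1 and Fech 4.19 against 14.5 CPM in cluster 2. These cluster values are given without intervals. Cluster 2 held 152 wild-type cells, and the highest single wild-type neutrophil-like cell had 10 Fech UMIs, so few cells could set its value. Over the whole class Alad (3.51 against 2.34 CPM, on 214 and 38 UMIs) and Uros (2.51 against 1.48 CPM, on 153 and 24 UMIs) were higher in SCD. In wild-type and SCD neutrophil-like cells Alad stood at 1.27% and 2.00% of its erythroid level. The summed erythroid markers stood higher, at 3.53% and 4.03%, and their part in the Alad values was not tested. Urod and Cpox had intervals that include 0. In monocyte-like and conventional DC-like cells Alas1 was lower in SCD, by 0.26 and 0.38 on the log2 scale, but within conventional DC-like cluster 3 it was 38.1 CPM in SCD against 32.9 CPM. The SCD value was also above the wild-type one in clusters 12 and 18 and below it in clusters 10 (23.0 against 32.98 CPM) and 13 (13.1 against 17.9 CPM). No intervals are given for single clusters, and clusters 10 and 18 held only 89 and 40 SCD cells, so these values give no firm direction within clusters. Cpox stood at 35.7 and 32.8 CPM in pDC-like cells and at 33.0 CPM in SCD B cell-like cells. Urod stood at 27.9 and 32.5 CPM in monocyte-like cells.

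**Figure D5:**
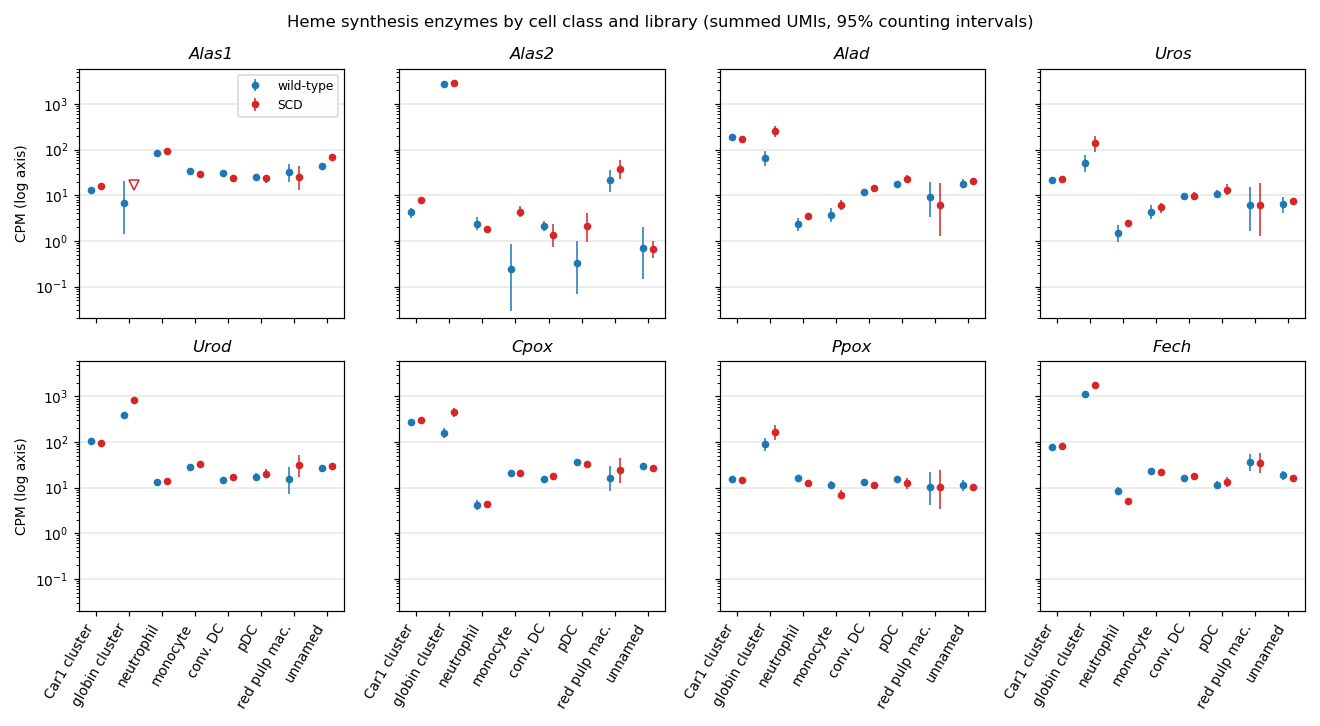
CPM (log axis) of each enzyme in the Car1 and globin clusters and in 5 named classes plus the unnamed clusters, wild-type library in blue and SCD library in red, with exact 95% counting intervals; the open triangle is the limit of a count of 0. Alas1 is highest in neutrophil-like cells (85.5 and 91.7 CPM), and Alas2 is near or below 5 CPM outside the globin cluster, except 7.88 CPM in the SCD Car1 cluster and 21.2 and 37.5 CPM in red pulp macrophage-like cells.

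The few Alas2 UMIs of non-erythroid classes lay mostly in 1 or a few cells in some classes and were spread in others. In wild-type neutrophil-like cells 36 of 39 UMIs lay in the 5 highest of 4372 cells, and in SCD monocyte-like cells 37 of 51 lay in 1 cell. In red pulp macrophage-like cells, 11 of 14 and 15 of 18 UMIs lay in 1 cell. The 109 UMIs of SCD neutrophil-like cells lay in 62 cells, but 49 of them lay in the 5 highest. By contrast, the 13 of SCD conventional DC-like cells lay in 13 cells and the 9 of SCD pDC-like cells in 9. Summed erythroid marker levels in these classes were 3.53% (wild-type neutrophil-like), 3.35% (SCD monocyte-like), 2.57% and 5.21% (red pulp macrophage-like) of the level in erythroid cells, with 2 (wild-type) and 3 (SCD) of 19 markers at 0 in the last. Their part in the Alas2 values was not tested.

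After each cell was thinned to 1000 UMIs, Alas2 was found in 85.5% of wild-type and 71.2% of SCD globin-cluster cells, in 1.05% and 2.29% of Car1-cluster cells and in 0.139% and 0.111% of neutrophil-like cells, which serve as the type that should lack it. Unthinned, the shares were 96.4% and 80.8%, 6.77% and 14.5%, and 0.183% and 0.862%, at median depths of 2453 and 6959 UMIs for the neutrophil-like cells. Fech was found in 65.5% and 78.8% of thinned globin-cluster cells and in 5.24% and 8.99% of Car1-cluster cells. Cpox, at 9.09% and 23.1% against 16.2% and 30.9%, was no more frequent in the globin cluster. Alas1 was found in 7.28% and 6.72% of thinned neutrophil-like cells. Thinning left out 1 wild-type and 15 SCD cells of the Car1 cluster and none of the globin cluster.

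A list of 23 other genes of the pathway held genes of iron and heme handling. In erythroid cells 16 were at least 2-fold higher than in other cells in both libraries, the same 16, and Bach1, a heme-binding repressor, was the 1 lower in both. Of all genes, 22.9% and 28.4% were that much higher and 38.8% and 32.1% lower. The median log2 ratio was 1.61 and 2.19. Tfr2 and Steap3, which serve iron uptake through transferrin, gave 6.59 and 5.91 and 5.57 and 4.21. Tfrc, the transferrin receptor, gave 2.03 and 2.80 and Slc11a2, the iron transporter, 2.69 and 3.51.

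Glrx5, of iron-sulfur cluster assembly, gave 3.40 and 3.40. Isca1, of the same process, gave 2.05 and 2.19. Abcb6, a porphyrin transporter, and Abcb10, a mitochondrial transporter, gave 3.61 and 3.09 and 2.36 and 2.24. Slc25a38, a mitochondrial glycine carrier, gave 1.44 and 2.10, Slc25a39 1.48 and 1.29 and Tmem14c, required for porphyrin transport, 1.15 and 1.45. Pgrmc1, a heme-binding protein, gave 1.86 and 2.38, Fam210b 1.61 and 2.54 and Clpx, a protease subunit that acts on Alas proteins, 1.09 and 1.22. Bach1 gave -2.48 and -1.90. Between SCD and wild-type erythroid cells none of the 23 passed 2-fold, where 2.62% of all genes were higher and 5.97% lower, and the median was 0.03.

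In the globin cluster, 10 of the 23 in the wild-type and 12 in the SCD library were at least 2-fold higher than in the Car1 cluster, with 10 shared, against 14.7% and 18.2% of all genes. In each library 8 were at least 2-fold lower, with 7 shared, against 62.9% and 60.5% of all genes. Slc25a37, the erythroid mitochondrial iron importer, was not past 2-fold between erythroid and other cells (0.77 and 0.59), but stood at 929 against 29.8 CPM and 1375 against 33.1 CPM between the clusters. Eif2ak1, the heme-regulated kinase, was 336 against 39.4 and 891 against 44.7 CPM. Bach1, low in erythroid cells as a whole, was 78.2 against 19.4 CPM and 281 against 17.4 CPM. Steap3 had 0 and 3 UMIs in the globin cluster and Tfr2 had 0 and 1, while in the Car1 cluster they stood at 88.0 and 93.7 and at 76.6 and 72.7 CPM.

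Among the 5 genes with the closest pattern to Alas2 over 48 combinations of cluster and library with at least 20 cells were Hbb-bh1 (Pearson's r = 0.96), Hba-x (0.95), Bpgm (0.94) and Hbq1a (0.94), among 7494 genes that reached 50 CPM in 1 of them. The points share libraries and totals, so this is a description. Among the members, Fech (0.85) and Ppox (0.81) were nearest to Alas2, and Alas1 was -0.51.

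The filters left out UMIs of different members. Barcodes under 500 genes (496 wild-type and 609 SCD) held 1419 of 2794 Alas2 UMIs in the wild-type matrix (50.8%) and 220 of 1370 in the SCD matrix (16.1%), and mouse globin was 41.3% and 2.62% of their UMIs. They also held 9.83% and 2.75% of the Fech UMIs, and at most 1.08% (Ppox, wild-type) of those of any other member. The ribosomal filter left out 346 wild-type and 272 SCD erythroid-like cells. The 542 and 691 barcodes with at least 500 genes that it left out held 44.8% and 15.4% of the Alad UMIs and 37.1% and 10.3% of the Cpox UMIs, but only 0.322% and 1.02% of the Alas2 UMIs.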

How the data were processed

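The deposited files are a count matrix of raw UMIs per gene and barcode for each of the 2 libraries, which the authors made with Cell Ranger 4.0.0 on a GRCm38.p6 reference, per the submitters' processing notes; they also name Seurat 3.2.3 and Scanpy 1.6.0. The members and lists were chosen with earlier results of these data known. Cells with at least 500 genes, under 15% mitochondrial and under 30% ribosomal UMIs were kept, with no upper limit on genes. Called doublets (386 wild-type and 298 SCD, 6 and 19 of them erythroid-like) were kept. Both libraries were clustered together (scanpy 1.11.5, Leiden with leidenalg 0.10.2, resolution 1, 2000 variable genes, 30 components, 15 neighbours), with the members and pathway genes left out, and clusters were named from marker lists. UMIs were summed per class. Intervals are exact: Poisson for CPM, Clopper-Pearson for shares and conditional binomial for ratios (scipy 1.17.1). A count of 0 allows 3 counts. UMIs were not tested across animals, since each group was 1 sample. Genes with at least 20 UMIs in a comparison gave the background. Interval coverage was tested on simulated data drawn from the same counting model that the intervals assume. That test does not cover UMIs gathered in a few cells. Named were all members, pathway genes past 2-fold and the 5 genes most correlated with Alas2 in log2(CPM + 5). Alternatives covered filters, scaling, pseudocount, clustering resolution, thinning and left-out cells. Values of some genes of these lists are not reported here.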

Additional observations from a re-analysis of the deposited data

Results flagged for a closer look

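Some UMIs of the members lay in barcodes that the filters left out and that enter only the alternatives without those filters. The ribosomal filter left out SCD barcodes that held 12.5% of the Alas1 UMIs, against 10.4% in the wild-type matrix. The mitochondrial filter left out SCD barcodes with 1.09% of the Alas2, 0.531% of the Cpox and 0.659% of the Fech UMIs, against 0, 0.158% and 0.103% in the wild-type matrix.

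For several members the SCD to wild-type ratio pointed in opposite directions in the Car1 cluster and in another class, and these differences were not tested. Alas1 was 0.28 on the log2 scale in the Car1 cluster, -0.26 in monocyte-like and -0.38 in conventional DC-like cells, a class whose clusters differed in share between the libraries. In that class the SCD values of Alas1 stood above the wild-type ones in clusters 3, 12 and 18 and below them in clusters 10 and 13. No intervals are given for single clusters, so these values give no firm direction. Alad was -0.11 in the Car1 cluster, 0.58 in neutrophil-like and 0.71 in monocyte-like cells. Alad stood at 1.27% (wild-type) and 2.00% (SCD) of its erythroid level in neutrophil-like and 2.02% and 3.49% in monocyte-like cells, beside summed erythroid markers at 3.53% and 4.03% and at 2.34% and 3.35%, and the part of these in the Alad values was not tested. Urod was -0.10 in the Car1 cluster and 0.28 over all non-erythroid cells, and Cpox was 0.18 and -0.21. The non-erythroid sum pools classes in changed proportions. Cpox was not lower in SCD within neutrophil-like (4.38 against 4.13 CPM) or monocyte-like cells (20.8 against 20.6 CPM). Nor was it lower in conventional DC-like (17.6 against 15.5 CPM) or red pulp macrophage-like cells (25.0 against 16.6 CPM, on 12 and 11 UMIs). Cpox was lower in SCD in pDC-like cells (32.8 against 35.7 CPM) and the unnamed clusters (26.6 against 29.7 CPM). B cell-like cells also gave less (33.0 against 44.9 CPM, on 90 and 9 UMIs). In neutrophil-like cells Cpox stood at 1.53% (wild-type) and 1.41% (SCD) of its erythroid level, below the summed erythroid markers, whose part was not tested.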

How the results depend on the processing

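No paired analysis was possible because there was 1 library per genotype. Intervals cover counting error only, and low counts limit the globin cluster. In 14 of 14 alternatives every member kept its direction between erythroid and other cells in both libraries, and its side of 2-fold except Ppox (2.52 and 3.32 at most 5000 genes). The alternative that changed only the choice of background genes could not move a member. The median over members was 2.78 (wild-type) and 2.58 (SCD) for erythroid against other cells, and -0.12 in erythroid cells and 0.17 in all cells for SCD against wild-type. The causes of the following shifts were not tested. With at most 5000 genes per cell (85 and 123 erythroid cells) these medians were 3.95, 5.52, 0.49 and -0.17, with 3 members at least 2-fold higher and 0 lower in SCD erythroid cells (Alad 1.89, Cpox 1.60 and Uros 1.37). The share of all genes past 2-fold under this limit is not given here. Urod (0.44) and Ppox (0.53) also turned positive, with Cpox at -0.11 in all cells, median UMI shares of 13.8% and 26.0% (61.35% and 69.2% before) and a thinned SCD share of 25.9%. Without the mitochondrial and ribosomal filters the wild-type median was 2.58, the erythroid median 0.020 (Ppox 0.034, Fech 0.0068), the all-cells median -0.073 (Alad -0.071, Urod -0.075) and the wild-type UMI share 73.3%. At least 1000 genes gave 2.60 in the wild-type. Median-of-ratios scaling gave 0.53 over all cells, with Ppox at 0.11, and Alad at 0.0054 in erythroid cells. A pseudocount of 5 CPM gave 2.45 and 1.91, and 0 members lower over all cells. Median shares of cells with a UMI, 11.8% and 10.5% at 1000 UMIs, were 18.97% and 14.5% at 2000 UMIs and 64.6% and 76.1% unthinned. Cutting the maturation score once, at its median, left 3 members at least 2-fold higher in each library, against 5 (wild-type) and 4 (SCD). Of all genes 3.91% and 2.25% were that much higher. Alternatives chosen after seeing the data were as follows. Without the globin cluster the medians were 2.03 and 2.16, and in SCD against wild-type erythroid cells 0 members were 2-fold lower and the median was 0.065 (Alas2 0.91, Fech 0.083), with UMI shares of 47.9% and 62.8%. With all barcodes the all-cells median was -0.071 (Alad -0.064, Urod -0.079) and the UMI shares 39.1% and 60.8%.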
